A study of Mus musculus with 26 samples.

Results

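The comparison set 5 arrays of lacrimal glands taken at 20 weeks of age against 6 arrays taken at 8 weeks, which together are 11 of the 26 arrays of the series. Each array was placed by the age in its title. The other 15 arrays, of glands at 4, 12 and 16 weeks, were used for the shared estimate of the spread and are described only beside these genes. All glands came from male C57BL/6.NOD-Aec1Aec2 mice, a model of Sjögren's syndrome in which the Idd3 region (Aec1, chromosome 3) and the Idd5 region (Aec2, chromosome 1) of the diabetes-prone NOD strain were placed on the C57BL/6 background. The series describes 8 weeks as an early stage before clinical disease and 20 weeks as the start of failing secretion. Mice of both ages carried both NOD regions, both ages lie after pubertal growth, and no strain without the regions was compared, so age and disease cannot be told apart. The titles call the arrays biological replicates, but the sources used here do not say whether 1 mouse or several gave the RNA of an array, and p-values measure the spread between arrays.

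The lacrimal gland makes the watery, protein-rich part of the tear film. Its acinar cells thread newly made secretory proteins into the endoplasmic reticulum (ER), where chaperones and disulfide isomerases fold them and sugars are attached, and then pass them through the Golgi to granules that fuse with the cell surface when nerves signal. Plasma cells lodged between the acini make dimeric IgA, which the epithelium carries into tears. In Sjögren's syndrome lymphocytes gather in the lacrimal and salivary glands and the flow of tears and saliva falls.

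Each gene was read from 1 probe set on a log2 scale, and 12376 genes were kept. A gene was called when limma's adjusted p for 20 against 8 weeks was under 0.05. One library stood apart. On 20 weeks replicate 1 the log2 values spread less (SD 1.36) than on the other 20-week arrays (1.93 to 2.12) or the 8-week arrays (1.95 to 2.27), and its median correlation with the other arrays of its age was 0.869, against 0.976 to 0.980 for the other four. Every result was therefore fitted with all arrays and again without replicate 1. RNA integrity was read from the actin and GAPDH controls, whose 3' minus 5' difference grows when RNA is shorter. For actin it was 2.63 ± 0.50 (SD, n = 6) at 8 weeks and 3.89 ± 0.89 (SD, n = 5) at 20 weeks, or 3.62 ± 0.75 (SD, n = 4) without replicate 1. These actin values overlapped between the ages. For GAPDH the difference was 1.15 ± 0.23 (SD, n = 6) at 8 weeks, with arrays from 0.94 to 1.49, and 2.54 ± 0.40 (SD, n = 5) at 20 weeks, with arrays from 2.05 to 3.08. The GAPDH values of the ages did not overlap, and without replicate 1 the highest at 20 weeks was 2.74. Age and RNA integrity so measured moved together, and each difference was added to the fit as a covariate. Acinar markers defined the tissue at both ages: the mean of 7 markers lay between 10.06 and 10.60 at 8 weeks and between 8.34 (replicate 1) and 10.87 at 20 weeks. At each age 6 of the 7 had a mean over 4.04, and Chrm3 did not (2.55 and 2.62). Markers of skeletal muscle, red blood cells and endothelium stayed near background, which is here a mean under 4.04, and a difference from or to such a level is a lower bound. Salivary gland markers varied widely at both ages, with array means of 3.83 to 9.04 at 8 weeks and 4.78 to 8.55 at 20 weeks.

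At 20 weeks more well-expressed genes were lower than higher. With all arrays 3123 genes (25.2%) were called, 1309 of them higher (10.6%) and 1814 lower (14.7%). Without replicate 1 the calls fell to 1481 (12%), of which 520 were higher (4.2%) and 961 lower (7.77%). The 2 fits shared 1311 genes (10.6%), all in the same direction: 364 higher (2.94%) and 947 lower (7.65%). Of these, 77 higher and 799 lower genes differed by at least 2-fold in both fits. The split depends on scaling: with all arrays it was 1465 higher and 1227 lower after quantile normalization, and 625 higher and 1851 lower after centring each array on its median. With the actin difference as a covariate 701 genes were called, 187 higher and 514 lower. With the GAPDH difference as a covariate, a fit chosen after the data were seen, 223 genes were called, 29 higher and 194 lower, and 212 of the 1311 kept their call. In the text below a gene is called in both fits unless the sentence says otherwise, and fold changes are 2 to the power of the log2 difference.

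**Figure D1:**
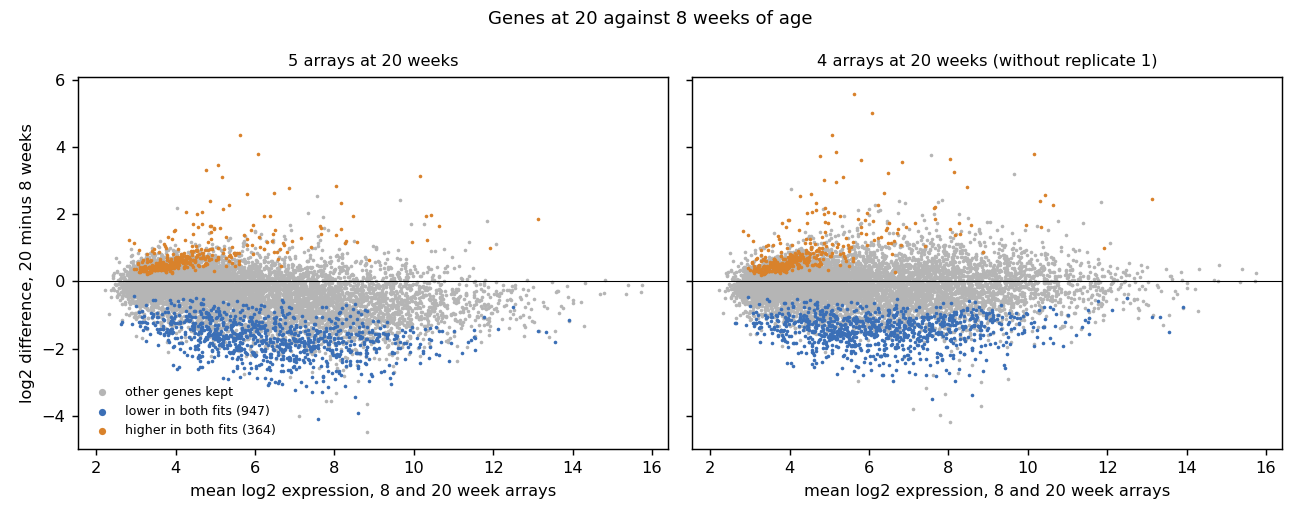
Each point is a gene, with the mean log2 expression over the 8-week and 20-week arrays on the horizontal axis and the log2 difference, 20 minus 8 weeks, on the vertical axis, for all 5 arrays at 20 weeks (left) and without replicate 1 (right). The 947 genes lower in both fits (blue) reach up to the well-expressed end, while most of the 364 higher genes (orange) sit at low levels with small differences.

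The direction of the calls followed the level of the gene. Among the 5174 genes with a mean under 4, 979 were called higher and 157 lower with all arrays, and 184 and 91 without replicate 1. Among the 1221 genes with a mean between 8 and 10, only 10 were called higher and 369 lower (30.2%), and 46 and 185 (15.2%) without replicate 1. For the 3729 genes with a mean of 6 or more, 48 (1.29%) were called higher and 1061 (28.5%) lower with all arrays, 145 (3.89%) and 536 (14.4%) without replicate 1, and 40 (1.07%) and 533 (14.3%) in both fits. The last share is the one beside which lists of well-expressed genes are read here. Lists with few such genes are read beside it and beside the shares over all genes, 2.94% higher and 7.65% lower. In bulk tissue, fewer cells of a type and less RNA per cell cannot be told apart.

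A larger share of genes that build and export secretory proteins than of well-expressed genes was called lower at 20 weeks. Of 26 ER chaperone and unfolded protein response genes, 22 of which have a mean of 6 or more, 8 were called lower and none higher, and the list's median log2 difference was -1.34, or -0.82 without replicate 1, beside medians of -0.02 and 0.03 over all genes. Medians over all genes with means of 6 to 8, 8 to 10 and over 10 were -0.68, -0.89 and -0.69 with all arrays and -0.30, -0.33 and -0.16 without replicate 1. Of 35 genes of translocation into the ER and transport to the Golgi, 34 with a mean of 6 or more, 11 were called lower and none higher, with a median of -1.49, or -0.99 without replicate 1. With the GAPDH covariate the medians of the 2 lists were -1.11 and -1.20, and 1 of 26 and 3 of 35 genes were called lower. All 20-week arrays lay below all 8-week arrays for 11 of the 26 and 14 of the 35 genes, beside 811 (6.55%) of all genes. That share is not matched for level, and the share among well-expressed genes alone was not counted. Over all genes, 522 (4.22%) lay wholly above, and without replicate 1 the counts were 890 (7.19%) below and 784 (6.33%) above.

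Pdia6, a disulfide isomerase that also quiets the ER stress sensor IRE1, read 8.20, 9.26 and 9.67 (lowest, median and highest of 6 arrays) at 8 weeks. At 20 weeks its 5 arrays read 6.20, 6.16, 6.16, 6.66 and 7.15. No array of one age overlapped the other, and replicate 1 was not the lowest. The difference was -2.72 (SE 0.39), 6.57-fold lower (limma, adjusted p = 0.000478), and -2.65 without replicate 1 (adjusted p = 0.000542). Pdia3, the isomerase that folds glycoproteins held by calnexin and calreticulin, had a median of 10.80 at 8 weeks and read 6.24, 6.92, 8.15, 8.21 and 9.63 at 20 weeks. Its arrays did not overlap, and the difference was -2.89 (SE 0.57; limma, adjusted p = 0.00262), or -2.49 without replicate 1 (adjusted p = 0.00792). Dnajb11, a co-chaperone of the main ER chaperone BiP, ran from 6.93 to 7.67 at 8 weeks and read 3.97, 6.03, 5.05, 5.79 and 6.07 at 20 weeks, a difference of -1.91 (SE 0.37; limma, adjusted p = 0.00251). Syvn1, the ubiquitin ligase that disposes of misfolded ER proteins, ran from 8.89 to 10.62 at 8 weeks and read 7.56, 8.88, 8.27, 8.79 and 8.69 at 20 weeks, where the highest array lay just under the lowest of 8 weeks. Its difference was -1.64 (SE 0.33; limma, adjusted p = 0.00318), and its second probe set differed by -2.84. With the GAPDH covariate Pdia6 kept its call (-2.68; limma, adjusted p = 0.0117), while Pdia3 (-1.93, adjusted p = 0.0875), Dnajb11 (-1.71, adjusted p = 0.0527) and Syvn1 (-1.21, adjusted p = 0.0899) lost it.

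A few members are described that were chosen after their values were seen. Hsp90b1, the ER form of HSP90, was lower by 1.74 on the log2 scale (SE 0.41; limma, adjusted p = 0.00801), or by 1.14 without replicate 1 (adjusted p = 0.0067); both control covariates ended the call. Herpud1, which helps to clear misfolded ER proteins, differed by -1.81 (SE 0.37; limma, adjusted p = 0.00324), or -1.33 without replicate 1. Hspa5 encodes BiP itself. All 5 of its 20-week arrays (9.75, 12.33, 12.32, 12.57 and 12.46) lay below the 8-week arrays (13.27 to 13.78). The fit over 5 ages did not call it, at -1.64 (SE 0.71, limma, adjusted p = 0.088), or -1.10 (adjusted p = 0.278) without replicate 1. Of 27 alternatives, 3 called Hspa5 lower (limma, lowest adjusted p = 0.000646). Its probe sets disagreed: the others gave -2.09 and 0.73, or -1.66 and 0.61 without replicate 1. Xbp1, a transcription factor that drives many of these genes, read 11.85 to 12.60 at 8 weeks and 9.70, 12.13, 12.75, 12.25 and 12.50 at 20 weeks, so that only replicate 1 was apart. Its value was -0.40 with all arrays (limma, adjusted p = 0.726) and 0.14 without replicate 1 (adjusted p = 0.919). The 4 probe sets of Xbp1 disagreed: the others gave -0.67, -1.70 and 1.02, or -0.15, -1.19 and 1.59 without replicate 1. Without _x_at and _s_at probe sets the one at -1.70 stood for the gene and was called lower (limma, adjusted p = 0.00867), so the direction of Xbp1 depends on the probe set.

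**Figure D2:**
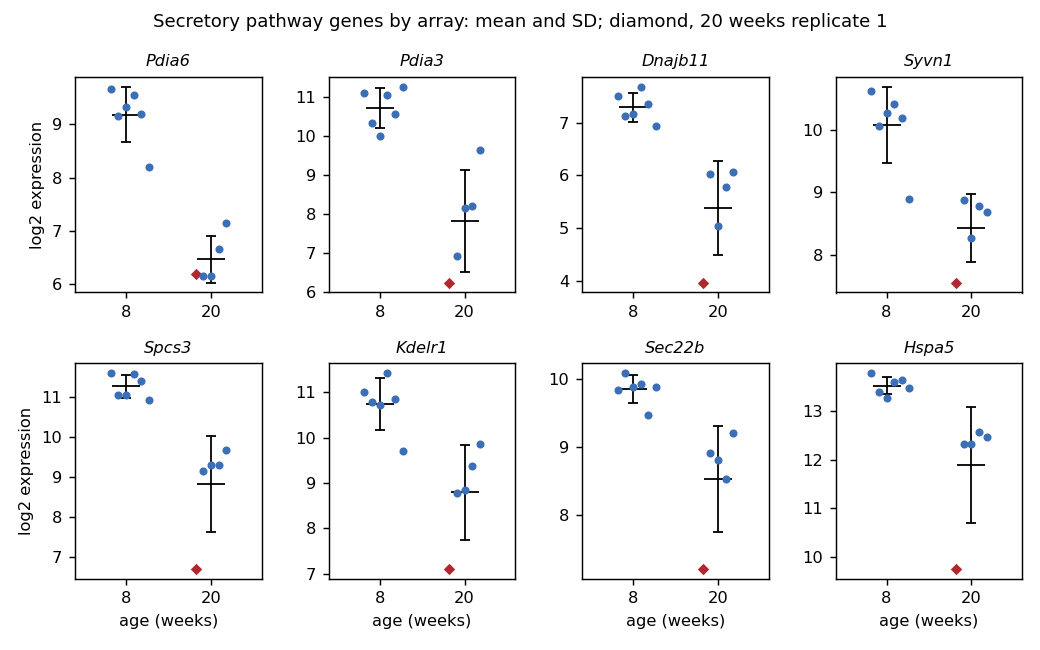
Log2 expression (vertical axis) of 8 secretory pathway genes on each array at 8 and 20 weeks (horizontal axis, weeks); points are arrays, the red diamond is 20 weeks replicate 1, and bars give the mean and SD. Pdia6 has a median of 9.26 at 8 weeks and arrays between 6.16 and 7.15 at 20 weeks; Hspa5, which was not called, lies between 13.27 and 13.78 and then at or under 12.57.

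The ER stress element (ERSE) is the promoter motif through which ATF6 and XBP1, with the CCAAT-binding factor NF-Y, are known to raise ER chaperone genes. The 250 bases before the RefSeq start (GRCm38.p6) were searched on both strands for ERSE, which is CCAAT, then 9 bases of any kind, then CCACG, and for its shorter form ERSE-II, which is ATTGG, 1 base of any kind, then CCACG. Both hold CCACG and a CCAAT box (ATTGG is CCAAT read on the other strand), and the 2 could overlap; in no window shown did both match. ERSE was present for 35 of 27025 genes with an entry (0.13%), in 37 of 32851 windows (0.113%), and ERSE-II for 10 genes (0.037%). Among the 23 listed ER genes with an entry, 9 held ERSE and 1, Herpud1, held ERSE-II. The list is made of known ER stress genes, so this share describes the list and not the comparison. Among genes called lower, ERSE was held by 3 of 791 with an entry (0.379%), and by 0 of 292 called higher. Of the 9 listed ERSE genes, Hsp90b1, Pdia6 and Syvn1 were called lower in both fits and Creld2 with all arrays only, and Calr, Canx, Dnajc3, Ero1b and Hspa5 were not called. The windows of the called genes and of Hspa5 are shown to set the called and uncalled holders side by side, with the matched letters in capitals, 5′ to 3′ along the gene.
Hsp90b1, chr10:86705445-86705694, minus strand: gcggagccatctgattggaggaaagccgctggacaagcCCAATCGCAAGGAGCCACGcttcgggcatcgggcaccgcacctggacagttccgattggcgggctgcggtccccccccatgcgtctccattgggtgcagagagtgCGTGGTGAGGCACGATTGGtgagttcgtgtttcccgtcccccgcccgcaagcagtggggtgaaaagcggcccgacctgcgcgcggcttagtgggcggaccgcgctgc
Pdia6, chr12:17266339-17266588, plus strand: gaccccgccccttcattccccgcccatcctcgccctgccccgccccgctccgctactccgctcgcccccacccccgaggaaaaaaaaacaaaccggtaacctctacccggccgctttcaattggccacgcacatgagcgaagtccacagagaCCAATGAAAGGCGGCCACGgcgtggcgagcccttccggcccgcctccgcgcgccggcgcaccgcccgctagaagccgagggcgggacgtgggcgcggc
Syvn1, chr19:6046326-6046575, plus strand: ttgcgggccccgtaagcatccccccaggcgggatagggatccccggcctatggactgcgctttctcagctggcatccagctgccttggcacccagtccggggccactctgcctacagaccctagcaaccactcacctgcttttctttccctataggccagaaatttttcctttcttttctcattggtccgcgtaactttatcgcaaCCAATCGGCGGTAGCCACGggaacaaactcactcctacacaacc
Herpud1, chr8:94386179-94386428, plus strand: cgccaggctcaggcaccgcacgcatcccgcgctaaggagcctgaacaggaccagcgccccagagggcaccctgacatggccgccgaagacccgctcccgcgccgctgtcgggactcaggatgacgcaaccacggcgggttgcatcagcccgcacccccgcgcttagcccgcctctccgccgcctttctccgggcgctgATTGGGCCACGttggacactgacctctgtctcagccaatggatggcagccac
Hspa5, chr2:34771840-34772089, plus strand: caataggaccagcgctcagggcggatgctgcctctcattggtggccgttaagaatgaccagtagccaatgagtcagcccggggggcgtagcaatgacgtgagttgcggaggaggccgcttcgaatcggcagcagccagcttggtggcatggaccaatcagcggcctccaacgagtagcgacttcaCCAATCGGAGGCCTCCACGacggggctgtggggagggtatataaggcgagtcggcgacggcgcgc
The match nearest the start ended 88 bases before it in Hsp90b1, which holds 2 matches, 79 in Pdia6, 25 in Syvn1, 41 in Herpud1 and 46 in Hspa5. A match is a run of letters and not a measured binding site, and the called and uncalled genes alike carry it.

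Members of the translocation and transport list act at successive steps of export. Spcs3, a subunit of the signal peptidase that cuts leader peptides, ran from 10.93 to 11.58 at 8 weeks and read 6.69, 9.15, 9.28, 9.29 and 9.67 at 20 weeks. The ages did not overlap, with or without replicate 1, and the difference was -2.44 (SE 0.39; limma, adjusted p = 0.000688), or -1.91 (SE 0.27; adjusted p = 0.000335) without it. Srp9, part of the signal recognition particle, ran from 10.03 to 11.05 and then read 7.42, 9.11, 9.25, 9.33 and 9.36, a difference of -1.86 (limma, adjusted p = 0.00268). Kdelr1, the receptor that returns escaped chaperones to the ER, ran from 9.70 to 11.42 and then read 7.10, 8.78, 8.84, 9.37 and 9.85, where 1 array of 20 weeks reached into the range of 8 weeks. Its difference was -1.95 (limma, adjusted p = 0.00303). Sec22b, a SNARE of ER to Golgi vesicles, fell by 1.32 on the log2 scale (limma, adjusted p = 0.00197), but the call was lost after quantile normalization (adjusted p = 0.0681). Uso1, the tether p115 that docks vesicles at the Golgi, is not in that list and was named as 1 of the 15 largest falls. It ran from 10.50 to 11.23 and then read 5.83, 8.03, 7.90, 8.19 and 8.77. Its difference was -3.07 (SE 0.46, limma, adjusted p = 0.000478). Over the whole list the values ran from -2.44 (Spcs3) to 0.16 (Tmed2).

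Glycosylation and disulfide enzymes stood among the 15 largest falls called in both fits. Qsox1, a secreted enzyme that makes disulfide bonds, ran from 9.91 to 10.86 at 8 weeks and read 4.40, 6.12, 5.93, 7.39 and 8.48 at 20 weeks. With all arrays it was 15.1-fold lower (log2 difference -3.91, SE 0.92, limma, adjusted p = 0.00736), and without replicate 1 the log2 difference was -3.40. A second well-expressed probe set of Qsox1 differed by -2.51. Alg5, which makes the glucose donor for N-linked sugars, differed by -3.11 (SE 0.63; limma, adjusted p = 0.00298), with 1 array of 20 weeks (8.33) inside the range of 8 weeks (8.03 to 9.40). Slc35b2, which brings the sulfate donor PAPS into the Golgi, differed by -3.28 (SE 0.66; limma, adjusted p = 0.00302).

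Abo, the blood group transferase, had the largest fall of the genes called in both fits. It ran from 8.60 to 10.21 at 8 weeks and read 2.94, 6.11, 4.64, 5.24 and 7.80 at 20 weeks, 17.1-fold lower (log2 difference -4.10, SE 0.76; limma, adjusted p = 0.00172) and -3.50 without replicate 1. Of 19 glycosylation enzymes, 8 with a mean of 6 or more, 4 were called lower and none higher. Shares called lower were 14.3% of well-expressed genes and 7.65% of all genes. The list's median was -0.44, or 0.01 without replicate 1. Fut4, which adds fucose to make Lewis X, ran from 6.51 to 8.44 and then read 3.40, 4.93, 5.46, 4.24 and 5.19, all below the 8-week arrays. Its difference was -3.10 (SE 0.68; limma, adjusted p = 0.0048). Fut4 read near background at 4 weeks (mean 3.07), so its level was high at 8 weeks and low at both ends. Galnt2, Galnt10 and Galnt11, which start O-linked sugars, differed by -1.70, -1.92 and -0.77. By contrast B4galnt2, which adds the last sugar of the Sda antigen, had the largest rise of the genes called in both fits and is described with the higher genes.

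Of 20 proteasome genes, 19 with a mean of 6 or more, 5 were called lower and none higher, with a median of -1.40, or -0.71 without replicate 1. Psma4, a subunit of the core ring, ran from 8.75 to 9.61 at 8 weeks and read 2.83, 5.71, 6.86, 7.04 and 8.14 at 20 weeks. Its arrays did not overlap, and the difference was -3.15 (SE 0.68; limma, adjusted p = 0.00444), or -2.33 without replicate 1. Psmb7 and Psmd4 differed by -2.44 and -1.92, and Psmd8, a lid subunit that is not in that list, by -3.04 (limma, adjusted p = 0.000656). Of 18 aminoacyl-tRNA synthetases, which load amino acids on tRNA, 4 were called lower and none higher (median -0.92, or -0.46 without replicate 1). In this list 14 genes had a mean of 6 or more, and 14.3% of all such genes were called lower. Kars, for lysine, ran from 7.23 to 8.75 and then read 3.44, 4.98, 4.45, 5.34 and 6.94, a difference of -3.05 (SE 0.62; limma, adjusted p = 0.00311). Cars, Rars and Tars, for cysteine, arginine and threonine, differed by -2.43, -2.01 and -2.16.

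RNA-binding proteins of splicing gave 3 of 17 called lower and none higher (median -0.79, or -0.53 without replicate 1), a share near that of well-expressed genes. Ptbp1, the polypyrimidine tract binding protein, ran from 9.70 to 10.62 at 8 weeks and read 4.04, 6.89, 6.97, 6.64 and 8.65 at 20 weeks. With all arrays it was 10.8-fold lower (log2 difference -3.44, SE 0.59, limma, adjusted p = 0.000967), and without replicate 1 the log2 difference was -2.79. Another Ptbp1 probe set, with a mean of 8.53 at 8 weeks, differed by 0.29, so the fall belongs to the probe set shown. Srsf5 ran from 7.15 to 8.99 and then read 5.03, 3.67, 5.02, 5.16 and 6.11, a difference of -2.96 (SE 0.53; limma, adjusted p = 0.00145) and -2.97 without replicate 1. For these 2 genes the 20-week arrays lay below every 8-week array. Cytosolic ribosomal proteins differed less after replicate 1 was left out: 1 of 20, Rpl4, was called lower, with a median of -0.77, or -0.20.

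**Figure D3:**
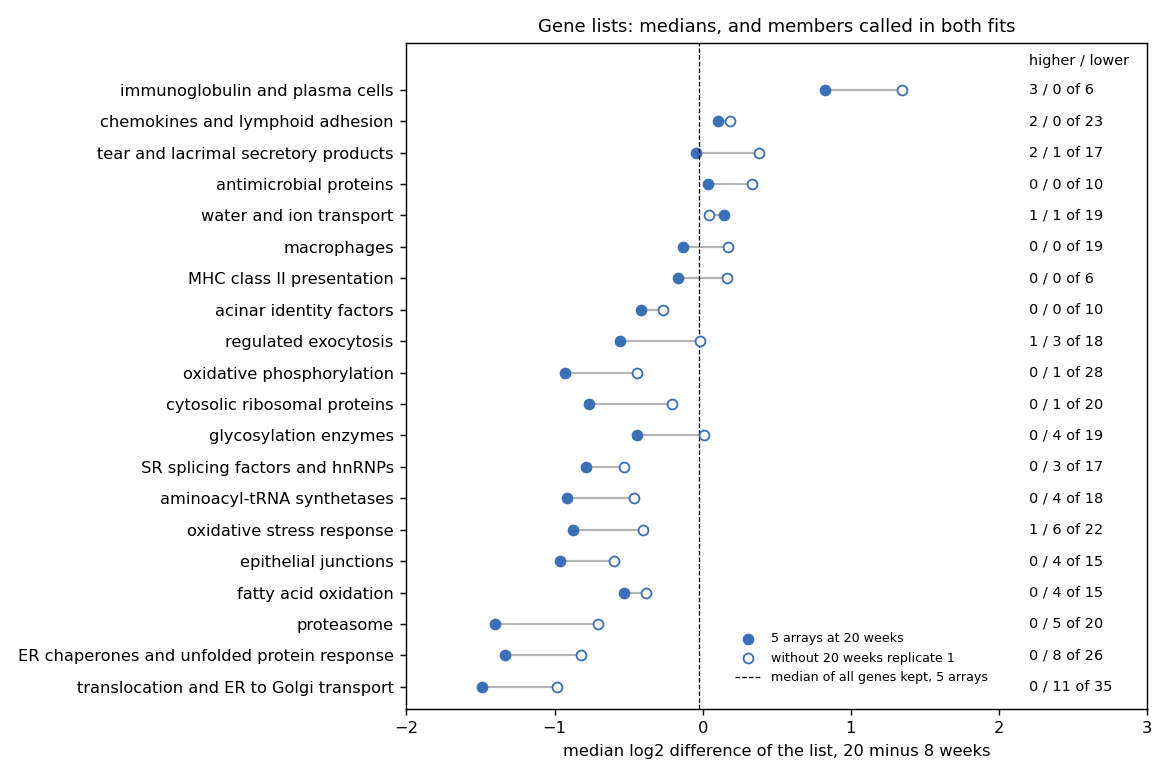
Median log2 difference (horizontal axis, 20 minus 8 weeks) of 20 gene lists with all 5 arrays at 20 weeks (filled) and without replicate 1 (open); the dashed line is the median over all genes, and the numbers at right count members called higher and lower in both fits. Translocation (-1.49), proteasome (-1.40) and ER chaperones (-1.34) lie farthest down with all arrays, every one of these moves towards 0 without replicate 1, and the antibody list is highest (0.82, then 1.35).

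Of 15 fatty acid oxidation genes, which burn fat in mitochondria, 4 were called lower and none higher (median -0.53, or -0.39 without replicate 1). A mean of 6 or more was seen for 9 of the 15, and 14.3% of all such genes were called lower. Etfdh, which passes electrons from fat oxidation to the respiratory chain, ran from 6.18 to 7.02 at 8 weeks and read 4.18, 4.63, 4.44, 4.09 and 5.27 at 20 weeks, a difference of -2.02 (SE 0.41; limma, adjusted p = 0.00311). Acaa2, Acadvl and Hadha differed by -2.01, -1.72 and -1.78, and all 3 lost the call when the actin or the GAPDH difference was a covariate (limma, highest adjusted p over the alternatives 0.114, 0.0895 and 0.191). Of 28 oxidative phosphorylation genes only Sdha was called, lower, a smaller share than among well-expressed genes, with a median of -0.93, or -0.45 without replicate 1. Sdhc, which anchors the same succinate dehydrogenase and is not in that list, ran from 8.11 to 9.64 and then read 3.95, 5.93, 5.61, 6.38 and 7.55. With all arrays it was 9.76-fold lower (log2 difference -3.29, SE 0.53, limma, adjusted p = 0.000656), and without replicate 1 the log2 difference was -2.80. Parl, a protease of the inner mitochondrial membrane, and Bcat2, which breaks down branched amino acids in mitochondria, differed by -3.23 and -3.11, each with no overlap between the ages.

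Of 22 oxidative stress genes, 14 with a mean of 6 or more, 6 were called lower and 1, Prdx4, higher. Among well-expressed genes 14.3% were called lower and 1.07% higher. The list's median was -0.88, or -0.40 without replicate 1. Txn2, the mitochondrial thioredoxin, ran from 7.91 to 8.73 at 8 weeks and read 6.92, 6.91, 6.52, 6.62 and 6.82 at 20 weeks, with replicate 1 among the others. Its difference of -1.45 (SE 0.14; limma, adjusted p = 8.55e-06) was -1.49 without replicate 1 (adjusted p = 8.42e-06), but quantile normalization ended the call (adjusted p = 0.206). Prdx3, the mitochondrial peroxiredoxin that Txn2 recharges, differed by -2.67 (SE 0.62; limma, adjusted p = 0.00704). Lipid enzymes were also among the 15 largest falls: Pla2g12a, a secreted phospholipase, at -3.03, and Ebp, a sterol isomerase of cholesterol synthesis, at -3.01.

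Epithelial junction genes gave 4 of 15 called lower and none higher (median -0.96, or -0.60 without replicate 1). In this list 12 genes had a mean of 6 or more, and 14.3% of all such genes were called lower. Gjb1, the gap junction protein that couples acinar cells, ran from 8.01 to 9.61 at 8 weeks and read 5.84, 7.02, 7.04, 6.40 and 7.55 at 20 weeks. The ages did not overlap, and the difference was -2.18 (SE 0.37; limma, adjusted p = 0.000926), or -1.95 without replicate 1. The tight junction genes F11r, Cldn3 and Cldn10 differed by -1.76, -2.66 and -1.87. Gja1, another gap junction gene, is described because of its values. It ran from 5.06 to 6.59 and then read 3.24 on replicate 1 and 7.13, 7.91, 8.07 and 8.30 on the others, and the difference was 1.21 with all arrays (limma, adjusted p = 0.179) and 2.13 without replicate 1 (SE 0.47, adjusted p = 0.0061). Of the alternatives that keep replicate 1, the mean of probe sets, array weights and the array SD as a covariate called it higher. Its probe set is of the _x_at kind, which can bind related transcripts, and the mean over its 6 probe sets was 0.97.

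Antibody genes were higher at 20 weeks. Of 12 immunoglobulin and plasma cell genes with a probe set, 6 were kept, with a median of 0.82, or 1.35 without replicate 1. Of these 6, 3 were called higher (Igha, Jchain and Ighm) and none lower, beside 2.94% and 7.65% over all genes. The other 3 were not called and had negative differences, from -1.30 (Eaf2) to -0.31. Without replicate 1 only 1 of the 6 was negative, Eaf2 at -0.73. Jchain, which joins IgA into dimers, read 4.42, 5.59 and 6.93 (lowest, median and highest) at 8 weeks and 5.35, 8.08, 8.49, 9.43 and 10.49 at 20 weeks. Every 20-week array but replicate 1 lay above all 8-week arrays, and the difference was 2.79 (SE 0.60), 6.94-fold (limma, adjusted p = 0.00444), or 3.55 without replicate 1 (adjusted p = 0.000122). Igha, the IgA heavy chain, ran from 8.49 to 10.40 and then read 9.66, 11.14, 10.57, 12.35 and 13.10. Again only replicate 1 overlapped, and the difference was 1.96 (SE 0.56; limma, adjusted p = 0.0207), or 2.38 (adjusted p = 0.00867) without it. The 3 probe sets of Igha gave differences of 1.96, 2.27 and 1.79. Its call was lost when 8 weeks replicate 1 or 20 weeks replicate 4 was left out and with the GAPDH covariate (limma, adjusted p up to 0.162 over the alternatives), under which Jchain kept its call (3.11, adjusted p = 0.0337).

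Igk, the kappa light chain locus, ran from 3.48 to 5.30 at 8 weeks and read 3.24, 8.23, 9.28, 10.28 and 9.62 at 20 weeks. Its difference was 3.79 (SE 0.93; limma, adjusted p = 0.00971), or 5.01 without replicate 1 (adjusted p = 0.000199), while its other 3 probe sets differed by 0.06 to 0.18. Igkv8-30, a kappa variable segment whose probe set can bind related segments, ran from 5.85 to 7.65 and then read 6.37, 9.84, 10.50, 10.23 and 11.03, a difference of 2.83 (SE 0.60; limma, adjusted p = 0.00402). Ighm, the IgM heavy chain, lay near background at 8 weeks (3.59 to 3.91) and read 4.78, 4.07, 7.85, 5.40 and 6.82 at 20 weeks, all 5 arrays above the 8-week arrays. The difference was 2.08 (SE 0.47; limma, adjusted p = 0.00599). Its 11 probe sets disagreed, with a mean difference of 1.07 and with 1 of them, chosen after its values were seen, at 5.94. With the spread taken from the 8-week and 20-week arrays alone, 15 of the 23 higher genes described here lost the call, Igha, Jchain, Igk and Ighm among them; when replicate 1 was also left out, only Clu and Chrm1 did.

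With all arrays, the means of the IgA genes at 12 weeks were already close to those at 20 weeks. Igha had means of 6.23, 9.41, 11.60, 10.95 and 11.36 at 4, 8, 12, 16 and 20 weeks, and Jchain 3.55, 5.57, 8.05, 8.28 and 8.37. Without replicate 1 the 20-week means were 11.79 for Igha and 9.12 for Jchain, so Jchain at 12 weeks lay further below. Ighm instead had 12-week and 16-week means of 4.15 and 3.91, close to its 8-week mean of 3.71, and 5.79 at 20 weeks. These means are given as levels, and the steps between ages were not tested here. Of the other plasma cell markers, Mzb1 and Tnfrsf17 stayed near background at both ages. Derl3 had a mean of 10.25 at 8 weeks and 9.89 at 20 weeks, with overlapping arrays.

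**Figure D4:**
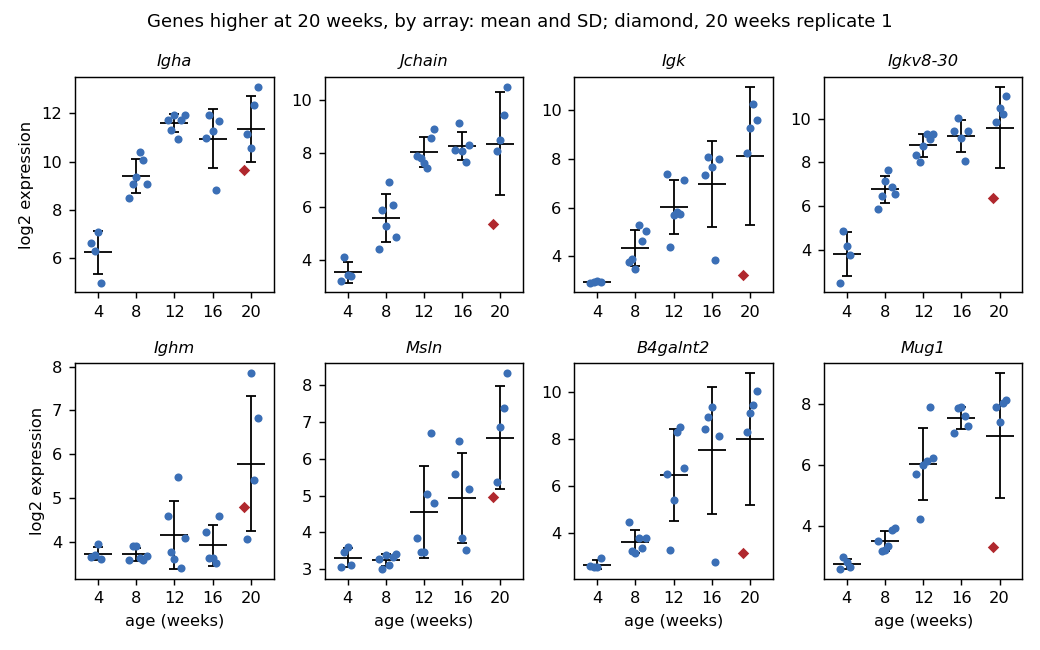
Log2 expression (vertical axis) of 5 antibody genes and 3 other genes higher at 20 weeks, on each array at 4, 8, 12, 16 and 20 weeks (horizontal axis); points are arrays, the red diamond is 20 weeks replicate 1, and bars give the mean and SD. Igha and Jchain are already near their 20-week means with all arrays (11.36 and 8.37) at 12 weeks (11.60 and 8.05), while Ighm stays near 4 until 20 weeks. Without replicate 1 the 20-week means of Igha and Jchain are 11.79 and 9.12.

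No gene of the B cell, T cell and macrophage lists was called in both fits over 5 ages, and 3 of 17 B cell and 7 of 22 T cell genes were high enough to be tested. Of 12 cytotoxic lymphocyte genes 2 were kept and 1 was called higher, beside 2.94% over all genes. The mean of the 2 was near background, at 3.31 at 8 weeks and 3.69 at 20 weeks. The B cell marker Ms4a1 (CD20) read 3.92 to 4.13 at 8 weeks and 4.68, 4.49, 4.48, 5.86 and 4.79 at 20 weeks. All 5 arrays lay above, yet the difference of 0.85 was not called (limma, adjusted p = 0.0964, or 0.135 without replicate 1). It was called higher with only the 8-week and 20-week arrays (limma, adjusted p = 0.0442, or 0.0428 without replicate 1) and after quantile normalization (adjusted p = 0.0287), and its other probe set, near background, differed by 0.05. Cd79a and Cd79b were near background at both ages. Of the T cell markers, Cd4 read 3.53 to 4.06 and then 5.35 on replicate 1 and 3.77 to 4.08 on the others (limma, adjusted p = 0.131), and Cd3d, Cd3e, Cd3g and Cd8a stayed near background. None of 19 macrophage genes was called in both fits, with a median of -0.13, or 0.17 without replicate 1. C1qa, a complement gene of macrophages, was called lower with all arrays (-2.02; limma, adjusted p = 0.029) and not without replicate 1 (-1.13, adjusted p = 0.072). None of 6 MHC class II genes was called. Their chaperone Cd74 ran from 10.03 to 11.52 and then read 6.25, 10.06, 10.34, 10.64 and 11.30 (-1.31; limma, adjusted p = 0.209), and the lysosomal protease Ctss gave 0.22 (adjusted p = 0.742).

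Chemokine genes went both ways. Of 23 chemokine and adhesion genes, 2 (Cxcr4 and Cxcl12) were called higher and none lower, beside 2.94% higher and 7.65% lower over all genes. With all arrays 3 were called higher and 1 lower, beside 10.6% and 14.7% over all genes. The list's median was 0.10, or 0.18 without replicate 1. Differences were negative for 8 of the 23, and the lowest was Ccl28 at -2.15, or -1.36 without replicate 1. Cxcr4, the receptor for CXCL12 on lymphocytes and plasma cells, ran from 3.06 to 3.79 at 8 weeks and read 3.40, 4.87, 4.73, 5.87 and 5.01 at 20 weeks. Its difference was 1.49 (SE 0.38; limma, adjusted p = 0.012), or 1.83 without replicate 1 (adjusted p = 0.00287). Cxcl12, its ligand from stromal cells, ran from 5.21 to 5.69 and then read 5.28, 6.03, 7.66, 7.06 and 6.53, a difference of 1.09 (SE 0.33; limma, adjusted p = 0.0253). For both genes the 4 arrays other than replicate 1 lay above all 8-week arrays; the Cxcl12 call was lost without 20 weeks replicate 3 or 4. Cxcl13, the chemokine that draws B cells, read 5.06 to 5.85 and 5.75 to 6.08 and was not called (0.24; limma, adjusted p = 0.266).

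Other genes among the 15 largest rises had varied products. Msln, mesothelin, ran from 3.00 to 3.40 at 8 weeks and read 4.95, 5.37, 6.86, 7.38 and 8.33 at 20 weeks, all above. The difference from near background was 3.33 (SE 0.60; limma, adjusted p = 0.00144), and it was called under every alternative. B4galnt2 ran from 3.16 to 4.48 and then read 3.13 on replicate 1 and 8.28, 9.10, 9.44 and 10.03 on the others. The difference was 4.36 (SE 1.14), 20.6-fold (limma, adjusted p = 0.0136), or 5.58 without replicate 1 (adjusted p = 0.00143), while its other 3 probe sets differed by -0.16, 1.12 and 0.10. Mug1, murinoglobulin, a protease inhibitor, ran from 3.18 to 3.92 and then read 3.31, 7.88, 7.40, 8.02 and 8.13, a difference of 3.45 (SE 0.64; limma, adjusted p = 0.00168). A2ml1, a related inhibitor, differed by 3.12 (limma, adjusted p = 0.0467), but 8 weeks replicate 1 read 13.04 against a median of 7.86, and 15 alternatives ended the call.

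Sulf2, which trims sulfates from heparan chains, ran from 6.65 to 7.73 at 8 weeks and read 5.76 on replicate 1 and 9.92, 10.34, 10.60 and 10.55 on the others. Its difference was 2.35 (SE 0.63; limma, adjusted p = 0.0157), or 3.27 without replicate 1 (adjusted p = 5.23e-05). Its other well-expressed probe set gave 0.43, or 0.49 without replicate 1, and the mean over 3 probe sets was 0.85. Pdpn, podoplanin of stromal and lymphatic cells, gave 2.16 (limma, adjusted p = 0.029), and Gsdme, a pore-forming gasdermin, 2.39 (adjusted p = 0.00684). Odam, a secreted protein of dental and glandular epithelium, gave 2.63 (adjusted p = 0.00579), Fam107a 2.61 (adjusted p = 0.0165) and Pabpc4l, a poly(A)-binding protein, 3.12 (adjusted p = 0.002). Zfp207 gave 2.28 (adjusted p = 0.0231), but a probe set of Zfp207 with a higher mean at 8 weeks differed by -1.37, so its probe sets disagree in sign. In all these genes except A2ml1, the 4 arrays other than replicate 1 lay above every 8-week array.

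Most products of the gland itself were not called. Of 17 tear and secretory product genes, 2 were called higher (Clu and Mup5) and 1 lower (Wfdc12), with a median of -0.05, or 0.38 without replicate 1. In this list 15 genes had a mean of 6 or more. Among all such genes 1.07% were called higher and 14.3% lower. Pip, prolactin-inducible protein, read 14.77 to 15.04 at 8 weeks and 13.16, 14.92, 14.89, 15.11 and 14.86 at 20 weeks (-0.35; limma, adjusted p = 0.315), and 0.01 (SE 0.18) without replicate 1. Its other probe set, with a mean of 9.61 at 8 weeks, differed by -3.43, or -2.78 without replicate 1, and the mean of both was called lower (-1.89; limma, adjusted p = 0.00211), so the probe sets of Pip disagree. Ltf, the iron-binding antimicrobial lactoferrin, gave 0.05 (SE 0.38; limma, adjusted p = 0.935) and 0.49 without replicate 1. Lcn2, a lipocalin that binds bacterial siderophores, gave 0.24 (SE 0.66, limma, adjusted p = 0.793). Wfdc12, a secreted protease inhibitor, ran from 14.03 to 14.53 and then read 11.34, 12.64, 12.24, 13.50 and 13.06, all below. Its difference was -1.82 (SE 0.40; limma, adjusted p = 0.0048), and scaling all arrays to equal SD ended the call (adjusted p = 0.328). Mup5, a major urinary protein, ran from 7.68 to 10.89 and then read 9.21, 11.67, 12.88, 11.06 and 12.78, a difference of 1.98 (SE 0.67; limma, adjusted p = 0.0367) that 13 alternatives no longer called.

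Clu, the extracellular chaperone clusterin, ran from 10.58 to 12.26 at 8 weeks and read 12.43, 11.74, 12.54, 12.45 and 13.07 at 20 weeks. Its difference was 0.98 (SE 0.25; limma, adjusted p = 0.0129), with 1 array inside the 8-week range. The call rests on probe sets of the _x_at kind, which can bind related transcripts: the other probe set of Clu differed by -0.44 with all arrays and 0.12 without replicate 1.

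Water and ion transport genes gave 1 call each way among 19 (median 0.14, or 0.04 without replicate 1). Over all genes 2.94% were called higher and 7.65% lower. Aqp5, the water channel of the acinar surface, ran from 10.28 to 11.34 at 8 weeks and read 8.09, 10.31, 10.46, 10.71 and 11.45 at 20 weeks. Replicate 1 alone lay far down, and the difference was -0.69 (SE 0.77; limma, adjusted p = 0.498), or -0.17 without it. Slc12a2, the cotransporter that loads acinar cells with chloride, gave 0.54 (SE 0.60; limma, adjusted p = 0.498), or -0.05 with the GAPDH covariate. Aqp8, a water and peroxide channel, ran from 7.98 to 9.13 and then read 2.67, 6.68, 6.93, 5.88 and 8.20, where 1 array of 20 weeks entered the 8-week range. Its difference was -2.54 (SE 0.60; limma, adjusted p = 0.00783), or -1.69 without replicate 1 (adjusted p = 0.0085). Aqp4 was called higher at 0.59 but had a mean near background at both ages (2.88 and 3.46).

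Receptors and calcium signals of secretion gave 1 higher and 1 lower among 18 (median -0.13, or -0.15 without replicate 1), beside 2.94% and 7.65% over all genes. Chrm3, the main muscarinic receptor of the gland, was at 2.50 to 2.76 on all 11 arrays, near background, and was not kept. Chrm1, a second muscarinic receptor, ran from 4.17 to 4.91 at 8 weeks and read 4.53, 6.38, 5.08, 4.41 and 5.64 at 20 weeks (0.72; limma, adjusted p = 0.0408), with overlapping ages and 14 alternatives that ended the call. Gna11, a G protein of the calcium pathway, gave -1.03 (SE 0.24; limma, adjusted p = 0.00704).

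Of 18 regulated exocytosis genes, 10 with a mean of 6 or more, 3 were called lower and 1 higher. The lower share was near the 14.3% of well-expressed genes. The list's median was -0.56, or -0.02 without replicate 1. Rab27a, a GTPase that brings granules to the membrane, ran from 7.92 to 8.90 at 8 weeks and read 4.48, 6.21, 6.69, 7.17 and 7.76 at 20 weeks, all below. Its difference was -1.91 (SE 0.45; limma, adjusted p = 0.00731). Vamp8, the granule SNARE of exocrine cells, gave -1.37 (SE 0.35; limma, adjusted p = 0.0111), and Sytl1, a Rab27 effector, -1.27 (adjusted p = 0.0275). Stx4a, a SNARE of the plasma membrane, rose from near background by 1.32 (SE 0.34; limma, adjusted p = 0.0122). Rab3d, the other granule GTPase, gave -0.51 with all arrays and 0.19 without replicate 1 and was not called (limma, adjusted p = 0.43 and 0.702). Its probe sets disagreed: the other 3 gave -0.97, -2.98 and 0.32, or 0.11, -2.14 and 0.30 without replicate 1, and the mean of all 4 was -1.03 (adjusted p = 0.0818). None of 10 acinar identity factors was called; Bhlha15 (Mist1), which sets up the secretory cell, ran from 11.74 to 12.36 and then read 9.50, 11.39, 11.17, 11.12 and 11.96 (-1.02; limma, adjusted p = 0.259).

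**Figure D5:**
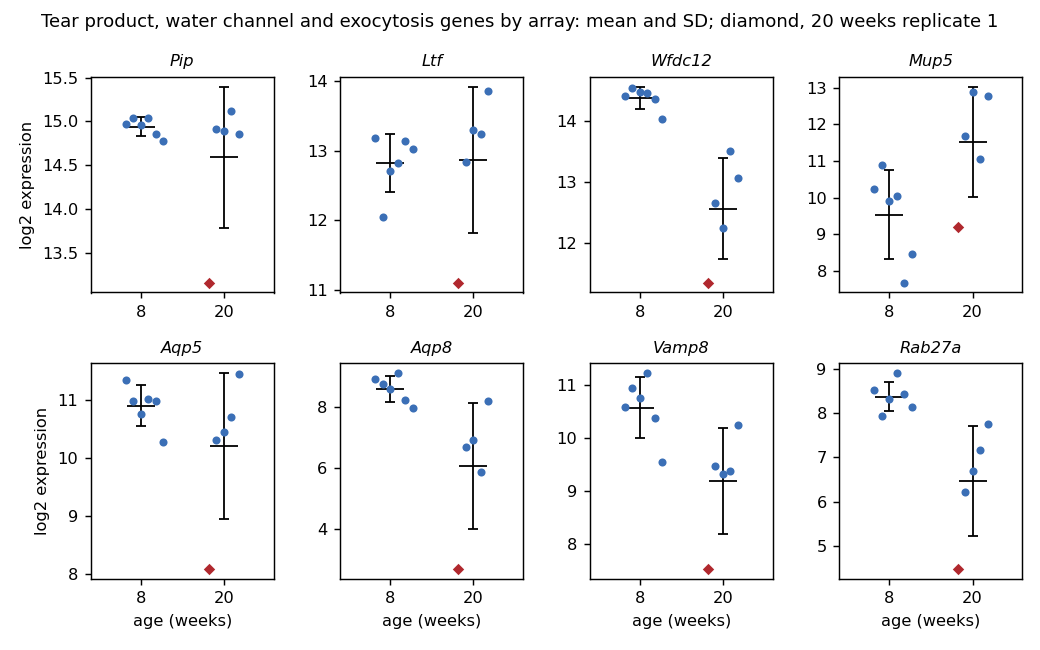
Log2 expression (vertical axis) of 8 genes of tear products, water channels and exocytosis on each array at 8 and 20 weeks (horizontal axis, weeks); points are arrays, the red diamond is 20 weeks replicate 1, and bars give the mean and SD. Pip, Ltf and Aqp5 overlap between the ages apart from replicate 1, whereas Wfdc12 (at most 13.50 at 20 weeks, at least 14.03 at 8 weeks) and Rab27a (7.76 and 7.92) do not.

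Of 9 steroid and prolactin receptor and response genes, 1 was called, lower (median -0.39, or -0.44 without replicate 1). Cyp4a12a, a fatty acid hydroxylase whose expression in male mice depends on androgen, ran from 10.99 to 11.77 at 8 weeks and read 7.34, 9.75, 7.87, 9.99 and 10.75 at 20 weeks, all below. Its difference was -2.29 (SE 0.45; limma, adjusted p = 0.0026), or -1.84 without replicate 1 (adjusted p = 0.0063), and it was called under every alternative. Its means at 4, 12 and 16 weeks were 4.55, 10.87 and 10.09, and the step from 4 weeks was not tested here.

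Genes from the NOD regions and Sjögren's autoantigens were mostly at background or uncalled. Il2, Ctla4 and Slc11a1, candidates in Idd3 or Idd5, had differences of 0.16, 0.13 and -0.02 near background and were not called (limma, adjusted p = 0.172, 0.14 and 0.839), and Il21 and Icos were not kept. Of 6 autoantigen genes, 1 was called: Ssb, the La protein, ran from 7.42 to 8.42 at 8 weeks and read 5.64, 5.90, 6.33, 6.84 and 6.78 at 20 weeks, a difference of -1.51 (SE 0.39; limma, adjusted p = 0.0126). Its mean over 4 probe sets was -0.26. Trim21, the Ro52 antigen, gave 0.16 (SE 0.22; limma, adjusted p = 0.583).

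Of the 52 lower genes described, 14 kept the call under every alternative that tested them: Ptbp1, Sdhc, Parl, Uso1, Psmd8, Pdia6, Spcs3, Srp9, Psmd4, Cars, Galnt11, Galnt2, Gjb1 and Cyp4a12a. The GAPDH difference as a covariate ended 35 of the calls, including Abo, Qsox1, Pdia3, Kars and Rab27a, and the actin difference 19. Of the 23 higher genes described, 5 kept the call throughout: Mug1, Msln, Pabpc4l, Igkv8-30 and Odam. The GAPDH covariate ended 17 of these calls, B4galnt2, Igha, Igk, Ighm, Cxcr4 and Cxcl12 among them, and the actin covariate 5. Leaving out a single array other than 20 weeks replicate 1 ended the call of Sytl1 among the lower genes (8 weeks replicate 1 or 4, 20 weeks replicate 2 or 4) and of 9 higher genes, A2ml1, Fam107a, Zfp207, Pdpn, Igha, Mup5, Aqp4, Chrm1 and Cxcl12; 8 of these lost it without 20 weeks replicate 4.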

How the data were processed

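RNA of lacrimal glands was measured on Affymetrix arrays. The authors deposited log2 expression values for 45101 probe sets in 1 table; per the submitters' processing notes RMA and GCRMA, methods that correct background and summarise probes, were named without versions, and the sources used here do not say which of them made the values. No further normalization was applied to the deposited log2 values. Detection calls were not used.

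Probe sets naming 1 gene (34945, controls left out; 932 named several genes and 9211 were not listed) gave 18193 genes. Of a gene's probe sets, the one with the highest mean log2 value stood for it, and 12376 genes lay above the array median on at least 4 arrays. limma 3.58.1 in R 4.3.3 (lmFit, eBayes) fitted the 5 age means to the 26 arrays, and again without 20 weeks replicate 1, with Benjamini-Hochberg adjustment over 12376 genes, two-sided. The script was tested on simulated data with independent errors and no outlying array, unlike these data. With all arrays it recovered 53% of changes of 1 log2 unit and 86% of changes of 2. Without replicate 1 it recovered 51% and 85%, so a gene that was not called may still differ.

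The comparison, the 54 gene lists (983 genes, 876 with a probe set, 717 kept) and the alternatives were chosen with earlier results of these data known. The named genes were drawn from the 15 highest and 15 lowest called alike in both fits and from 4 members per list, by smallest p. To these were added 21 set genes such as Igha, Pip and Il2. Not all of the list members so drawn are described, and many of those left out were not called in both fits. Others are cell type markers, holders of a promoter motif, or called members or range ends of a list. The rest are said to be chosen after their values were seen. Same-numbered replicates of the ages did not deviate together (correlations from -0.37 to 0.17), so numbers do not pair arrays. The number of arrays limits the precision.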

Additional observations from a re-analysis of the deposited data

Results flagged for a closer look

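Among the genes described, 1 array lay far from the others of its age in 36 of 196 groups tested (Dixon's test), where chance gives about 5%, or 1 in 20. Of these, 23 fell on 20 weeks replicate 1, 22 of them as the lowest array. Values are log2 expression, with the nearest other array after it. Among genes higher at 20 weeks, replicate 1 was low for B4galnt2 3.13 (next 8.28), Mug1 3.31 (next 7.40), Pabpc4l 3.97 (next 7.09), Igkv8-30 6.37 (next 9.84), Fam107a 3.21 (next 7.43), Gsdme 3.71 (next 6.27), Sulf2 5.76 (next 9.92), Pdpn 3.11 (next 6.74).

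Replicate 1 was also low for these genes of secretion, protein handling and immunity: Cd74 6.25 (next 10.06), Ctss 7.50 (next 10.07), Pip 13.16 (next 14.86), Spcs3 6.69 (next 9.15), Srp9 7.42 (next 9.11), Cldn10 6.46 (next 9.52), Gja1 3.24 (next 7.13), Rars 4.75 (next 6.87), Psmb7 5.92 (next 8.52), Prdx3 4.92 (next 6.49), Herpud1 7.79 (next 9.88), Hsp90b1 8.09 (next 10.81), Hspa5 9.75 (next 12.32), Xbp1 9.70 (next 12.13). It was high for Cd4, 5.35 (next 4.08), the T cell marker. On 20 weeks replicate 4 the B cell marker Ms4a1 was high, 5.86 (next 4.79).

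At 8 weeks, replicate 6 was low for Sdhc 8.11 (next 9.19), Wfdc12 14.03 (next 14.36), Gna11 6.73 (next 7.70), Pdia6 8.20 (next 9.16), Syvn1 8.89 (next 10.06), Cldn3 7.50 (next 9.08), all genes lower at 20 weeks. The other arrays apart at 8 weeks were A2ml1 on replicate 1, high at 13.04 (next 8.67), Cxcl13 on replicate 1, low at 5.06 (next 5.71), Icos on replicate 1, low at 2.62 (next 2.79), Slc11a1 on replicate 3, high at 3.43 (next 3.01), Stx4a on replicate 1, high at 4.09 (next 3.17), Cxcr4 on replicate 4, high at 3.79 (next 3.25).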

How the results depend on the processing

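Counts depended on the arrays and covariates used. With each 8-week or 20-week array left out in turn, the 3123 calls ran from 1364 (without 8 weeks replicate 1) to 4343 (without 20 weeks replicate 5), with 300 to 2017 higher and 961 to 2326 lower; they were also below the main count by over 1.5 times without 20 weeks replicate 1 (1481) or 4 (1585) and 8 weeks replicate 4 (1611) or 5 (2009). Starting without 20 weeks replicate 1, the 1481 calls ran from 696 (without 20 weeks replicate 4) to 2466 (without 20 weeks replicate 5), with 247 to 1196 higher and 449 to 1287 lower; leaving out 20 weeks replicate 2 gave 902, replicate 3 gave 791 and 8 weeks replicate 4 gave 985. Leaving out both arrays that stand apart, which are 20 weeks replicate 1 and 16 weeks replicate 4, gave 1907 calls, 656 higher. The 8-week and 20-week arrays alone gave 1055 (170 higher, 885 lower), or 1516 (437, 1079) without 20 weeks replicate 1. Centring gave 625 higher, no filter 2081 higher and the stricter filter 369 higher. Array weights, whose fit stopped before its tolerance, gave 4986 (2469 higher), and 4828 (2389 higher, 2439 lower) without replicate 1. The array SD as a covariate gave 1156 (600 higher, 556 lower). The actin difference as a covariate gave 701 (187 higher, 514 lower), or 831 (300, 531) without replicate 1, and kept 651 of the 1311 genes called in both fits. The GAPDH difference as a covariate, chosen after seeing the data, gave 223 (29 higher, 194 lower), or 349 (118, 231) without replicate 1. A threshold of at least 2-fold gave 1586 (81 higher), and 193 higher without replicate 1. Without replicate 1, quantile normalization gave 1082 higher and scaling to equal SD 881. The replicate block, with numbers that do not pair the arrays, gave 1989 calls, 465 higher, and ended the calls of A2ml1, Mup5, Aqp4, Chrm1 and Sytl1. The cause of these shifts was not tested.

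Sign changes fell on genes that were not called, except Clu (-0.44 without _x_at and _s_at probe sets). Without 20 weeks replicate 1, and also with the 16-week array left out or with only 2 ages fitted, Rab3d read 0.19, Pip 0.0061 and Xbp1 0.14. Quantile normalization gave Rab3d 0.19 and Xbp1 0.26. Scaling to equal SD gave Aqp5 0.11, Rab3d 0.12, Pip 1.18 and Xbp1 0.65. The array SD covariate gave Cd74 0.26, Aqp5 0.72, Rab3d 0.39, Pip 0.089, Bhlha15 0.074 and Xbp1 0.94. The actin covariate gave Aqp5 0.14, Rab3d 0.23, Slc11a1 0.0027 and Xbp1 0.51, the GAPDH covariate gave Slc12a2 -0.047, array weights gave Xbp1 0.13, and centring gave Ltf -0.047. With single arrays left out, the values ran from -0.055 to 0.84 for Ctss, -0.90 to 0.19 for Rab3d, -0.20 to 0.49 for Ltf, -0.48 to 0.0061 for Pip, -0.24 to 1.02 for Lcn2, -0.051 to 0.049 for Slc11a1 and -0.62 to 0.14 for Xbp1. Levels near background have no order.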

Other observations

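Other gene groups are given by their counts at 20 against 8 weeks, called in both fits unless stated, beside 2.94% higher and 7.65% lower over all genes. Counts with all arrays are read beside 10.6% higher and 14.7% lower over all genes. Of 14 autophagy genes 2 were called higher and 2 lower. Of 20 apoptosis genes 4 were called lower and none higher, with a median log2 difference of -0.41, or -0.21 without 20 weeks replicate 1. Of 26 collagen and matrix genes 2 were lower, with a median of -0.18, or -0.03 without replicate 1, and of 20 cathepsin and lysosome genes 2 were lower. Of 19 immediate early genes, a class that cells switch on soon after a stimulus, 1 was higher and 9 were lower with all arrays, and 2 were lower in both fits. Of 16 circadian clock genes 4 were lower with all arrays and 2 in both fits.

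Of 18 type I interferon genes, 1 was called lower with all arrays, beside 14.7% over all genes, and none in both fits. Of 11 interferon gamma genes 1 was called, Iigp1, a GTPase of cell defence, which is named after its values were seen. It ran from 4.80 to 5.61 at 8 weeks and read 5.56, 6.05, 5.99, 6.29 and 5.73 at 20 weeks, so that replicate 1 alone overlapped. The difference was 0.61 (SE 0.17; limma, adjusted p = 0.0199), or 0.70 without replicate 1 (adjusted p = 0.0151), and the mean over its 2 probe sets was 0.26.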
